A study of Mus musculus with 6 samples.

Results

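The endothelial transcription factors examined here were the 10 genes Klf2, Klf4, Sox7, Sox17, Sox18, Erg, Fli1, Foxc1, Foxq1 and Lef1. They were found as the transcript clusters that the annotation of the array assigns to each gene, and each of the 10 had 1 cluster that names it alone, among 35556 clusters and 19938 genes named in this way. A transcript cluster groups the probes that read 1 transcribed locus. Whole brains came from male C57BL6 mice that were bought at an age of 7 to 8 weeks and acclimatised for 1 week. Of these, 3 had received 4 mg/kg of LPS from Escherichia coli i.p. and 3 PBS as vehicle, with no other agent or allele in either group. All mice were perfused with PBS when they were killed 48 hours after the injection, and each brain was hybridized to its own Mouse Gene 1.0 ST array, so that n = 3 per group. The values are the log2 expression values of the authors after robust multichip average (RMA) normalization.

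Endothelial cells line the blood vessels, and in the brain they form the blood-brain barrier. Klf2 and Klf4 are zinc finger factors that are switched on by blood flow and hold the vessel wall in a quiescent, anti-inflammatory state. Sox7, Sox17 and Sox18 make up the SOXF group of high mobility group factors and direct the formation of arteries and lymphatic vessels. Erg and Fli1 are ETS factors that maintain endothelial identity by binding to many genes of cell junctions. The forkhead factors Foxc1 and Foxq1 and the Wnt effector Lef1 belong to the programme of brain vessels, Lef1 as the partner through which beta-catenin reaches DNA. Several of them also work outside the vessel wall, Fli1 in blood cells and microglia, Lef1 in lymphocytes and thalamic neurons, and Foxc1 in the meninges and in mural cells.

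The promoters of the flow-responsive pair and of Erg are shown as examples, from 3 of the genes that overlapped between LPS and PBS in the measurements given below. Erg has more than 1 start site, and 1 is shown. The sequences are the 250 bases before the transcription start in RefSeq (GRCm38.p6), 5′ to 3′ on the strand of the gene, and capitals mark a match to the MEF2 core, CTA and TAG with any 4 bases between them, which is bound by the factor through which flow activates Klf2.
Klf2 (chr8:72318812-72319061, + strand): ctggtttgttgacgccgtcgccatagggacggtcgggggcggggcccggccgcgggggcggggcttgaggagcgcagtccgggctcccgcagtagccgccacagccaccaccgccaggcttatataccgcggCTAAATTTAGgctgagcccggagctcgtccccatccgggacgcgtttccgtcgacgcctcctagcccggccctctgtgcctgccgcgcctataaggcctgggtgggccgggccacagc
Klf4 (chr4:55532476-55532725, - strand): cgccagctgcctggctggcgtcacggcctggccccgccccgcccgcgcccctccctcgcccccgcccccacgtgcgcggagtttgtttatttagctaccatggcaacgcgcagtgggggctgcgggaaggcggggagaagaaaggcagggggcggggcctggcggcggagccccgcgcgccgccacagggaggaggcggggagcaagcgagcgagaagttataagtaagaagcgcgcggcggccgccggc
Erg (chr16:95586594-95586843, - strand): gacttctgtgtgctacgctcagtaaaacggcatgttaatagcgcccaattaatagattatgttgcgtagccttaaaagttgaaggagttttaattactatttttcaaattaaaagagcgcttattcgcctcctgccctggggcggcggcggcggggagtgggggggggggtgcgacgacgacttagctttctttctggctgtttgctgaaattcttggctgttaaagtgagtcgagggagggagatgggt
The Klf2 promoter held 1 such match, which begins 118 bases before the start site, and the promoters of Klf4 and Erg held none. Over the same 250 bases, on both strands, 3.2% of 32851 promoters in the table had a match. Promoters were found in the table for 5 of the 10 genes, Klf2, Klf4, Erg, Foxc1 and Lef1, with 10 start sites between them, some of which overlap. The letters CACCC, read by KLF factors, were in 8 of the 10 start sites against 52.0% of all promoters. These 8 belong to only Erg, Foxc1, Klf2 and Lef1, and start sites of 1 gene are not independent. The interferon-response letters, TTTC repeated with any 2 bases between, and the STAT letters TTCNNNGAA were in 0 of the 10, against 2.98% and 7.02% of all promoters. These matches describe letters in a window and are not binding sites.

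None of the 10 factors passed the test after LPS. By limma, with adjustment over all clusters and a threshold of 0.05, 0 were higher and 0 were lower, against 0.652% of all clusters called higher and 0.0619% called lower. The methods' t-test, the unpaired t test of the study, called 0 of the 10, but it called few clusters at all, with 0.0112% of them higher and 0.00281% lower. By limma before adjustment, at p under 0.05, Sox17, Fli1, Lef1 and Foxq1 were higher and 0 were lower, where 7.69% of all clusters were higher at that level. In 5 of the 10 genes, these 4 and Sox7, all 3 LPS arrays lay above all 3 PBS arrays, against 9.73% of all clusters with that order. In the other 5 genes the groups overlapped. The median log2 fold change of the 10 genes was 0.21, against -0.02 over all named genes. With 3 mice per group the number of arrays limits the precision, and an exact two-sided permutation test cannot give a p below 0.1.

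**Figure D1:**
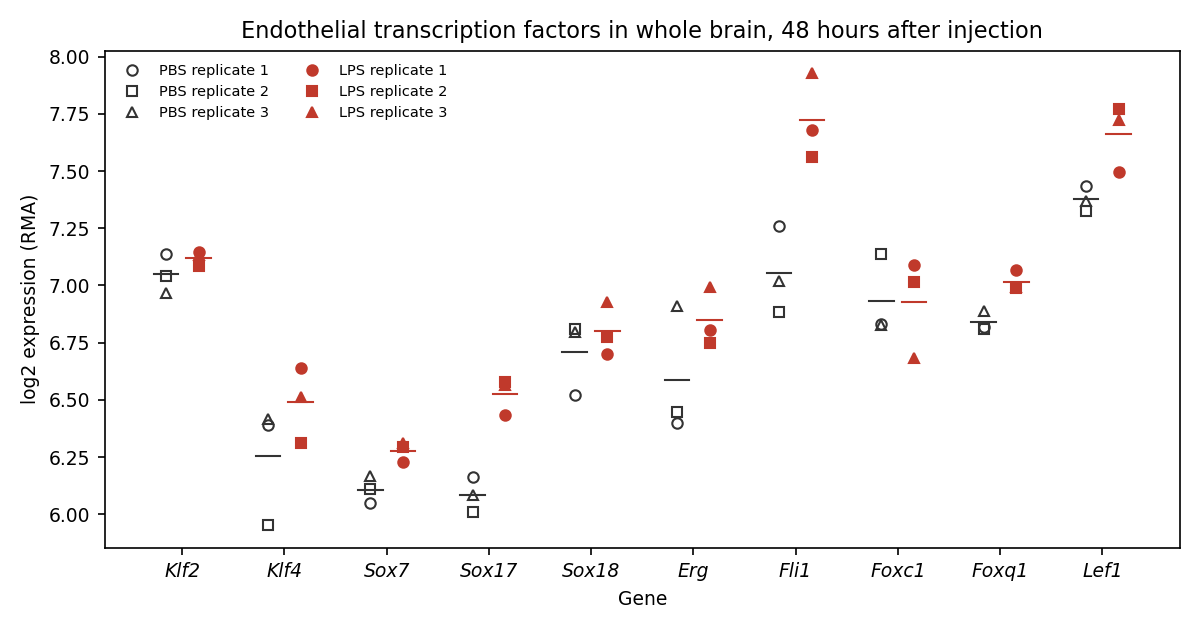
Log2 expression of the 10 transcription factors in each mouse, open dark symbols for PBS and filled red symbols for LPS, with the mean of each group as a bar and symbol shapes for the replicate number. The LPS symbols lie above all PBS symbols for Sox7, Sox17, Fli1, Foxq1 and Lef1 and overlap them for the other 5 genes.

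The first principal component, with 54.5% of the variance, set LPS replicates 1 and 2 against the remaining 4 arrays, and the median log2 value of an array was 7.09 and 7.11 in them against 6.95 to 6.98 in the others. Without LPS replicate 3, which lay on the side of the PBS arrays on this component, 3792 clusters passed in place of 254, and Sox17 and Fli1 were then called higher. As a reference for background, 1210 clusters of olfactory or vomeronasal receptors, little used in brain tissue, had array medians of 5.67 to 5.81. In the PBS mice 7 of the 10 factors were brighter than 90% of these clusters. The exceptions were Klf4, Sox7 and Sox17, which were brighter than 88.7%, 80.6% and 79.3% of them and thus lay nearer to background.

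The flow-responsive factors overlapped between the groups. Klf2 had log2 expression values of 7.14, 7.04 and 6.97 in the PBS mice and 7.15, 7.08 and 7.13 in the LPS mice. The LPS mice lay within the upper part of the range of the PBS mice or just above it. The log2 fold change of Klf2 was 0.07 (95% confidence interval -0.11 to 0.26, limma adjusted p = 0.702), and its sign turned to -0.02 after quantile normalization and after centring on the array median. The interval spans fold changes of 0.925 to 1.20. Klf4, which is induced by the same stimuli as Klf2, had values of 6.39, 5.95 and 6.42 after PBS and 6.64, 6.31 and 6.51 after LPS. PBS replicate 2 lay apart below the other mice, and LPS replicate 2 lay below PBS replicates 1 and 3. The log2 fold change of Klf4 was 0.24 (95% confidence interval -0.12 to 0.60, limma adjusted p = 0.506), an interval that reaches a 1.51-fold increase.

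Within the SOXF group the arrays separated for Sox17 and Sox7 but not for Sox18. Sox17, which is required for arterial identity, had values of 6.16, 6.01 and 6.09 after PBS and 6.44, 6.58 and 6.56 after LPS. Every LPS mouse lay above every PBS mouse, and the gap of 0.27 between the groups exceeded the range within either group. Its log2 fold change was 0.44 (95% confidence interval 0.24 to 0.64), or 1.36-fold, with the smallest p of the 10 factors (limma adjusted p = 0.0985). Leaving out LPS replicate 3 brought Sox17 past the threshold (limma adjusted p = 0.0374), and leaving out each of the other arrays gave adjusted p of 0.219 to 0.346. Sox7 had values of 6.05, 6.11 and 6.17 after PBS and 6.23, 6.29 and 6.31 after LPS. The groups did not overlap, by a gap of 0.06, and the log2 fold change was 0.17 (95% confidence interval -0.0061 to 0.35, limma adjusted p = 0.362). Sox18, a regulator of lymphatic differentiation, had values of 6.52, 6.81 and 6.80 after PBS and 6.70, 6.78 and 6.93 after LPS. These interleaved, and the log2 fold change was 0.09 (95% confidence interval -0.17 to 0.35, limma adjusted p = 0.734).

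The ETS factor Fli1 had the largest difference among the 10 genes. Its log2 expression was 7.26, 6.89 and 7.02 in the PBS mice and 7.68, 7.56 and 7.93 in the LPS mice. The lowest LPS value exceeded the highest PBS value by 0.30, and LPS replicate 3 was the highest of the 6 mice. The log2 fold change was 0.67 (95% confidence interval 0.35 to 0.99, a fold change of 1.59, limma adjusted p = 0.119). Fli1 passed without LPS replicate 3 (limma adjusted p = 0.0396) and had adjusted p of 0.170 to 0.367 without each of the other arrays. Erg, its closest relative among the 10, had values of 6.40, 6.45 and 6.91 after PBS and 6.81, 6.75 and 6.99 after LPS. PBS replicate 3 lay within the range of the LPS mice, so that the groups overlapped. The log2 fold change of Erg was 0.27 (95% confidence interval -0.10 to 0.63, limma adjusted p = 0.460). The intervals of Fli1 and Erg overlap, and the difference between them was not tested.

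Fli1 is transcribed in microglia and blood cells as well as in endothelium. Of 11 measured genes of microglia and macrophages 2 rose, 0 fell and 9 did not pass by limma. The 2 were Itgam, which encodes the integrin CD11b (log2 fold change 1.77, limma adjusted p = 0.00317), and Ptprc, which encodes the leucocyte antigen CD45 (0.89, limma adjusted p = 0.0155). With any single PBS replicate or LPS replicate 1 left out, 1 gene passed. The summed linear signal of this list was 2684 to 3012 in the PBS mice and 3464 to 4211 in the LPS mice, and no member lay below the receptor median. Spi1, the ETS factor that defines myeloid cells, was at 6.72 ± 0.12 after PBS and rose to 7.60 ± 0.15 after LPS (SD, n = 3 each), a log2 fold change of 0.88 (limma adjusted p = 0.0217), and kept its call only without LPS replicate 3 when arrays were left out in turn (adjusted p up to 0.109). The call of Spi1 also ended after quantile normalization (limma adjusted p = 0.0665) and median centring (limma adjusted p = 0.0737). Of the blood cell lists, 1 of 11 genes of neutrophils and blood monocytes was higher, and 0 of 11 lymphocyte genes and 0 of 7 platelet and erythrocyte genes passed. In these 3 lists, 5, 6 and 1 genes lay below the receptor median in the PBS mice. The part of myeloid cells in the Fli1 values was not tested. In whole-brain RNA, a change in the number of cells of a type and a change in RNA per cell cannot be told apart.

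Neither forkhead factor passed. Foxq1, which is enriched in brain endothelium, had values of 6.82, 6.81 and 6.89 after PBS and 7.07, 6.99 and 6.99 after LPS. The mice of each group lay close together and the groups did not overlap. The log2 fold change was 0.18 (95% confidence interval 0.0065 to 0.35, limma adjusted p = 0.336), or 1.13-fold. Foxc1, which takes part in the development of meninges and mural cells, had values of 6.83, 7.14 and 6.83 after PBS and 7.09, 7.02 and 6.68 after LPS. The highest and the lowest of the 6 values came from PBS replicate 2 and LPS replicate 3. Its log2 fold change was -0.0044 (95% confidence interval -0.34 to 0.33, limma adjusted p = 0.993). Its sign turned without LPS replicate 3 (0.12), without PBS replicate 2 (0.10) and with array weights (0.15). Among the cells in which Foxc1 is known, 1 of 12 fibroblast genes rose, 0 fell and 11 did not pass, with summed signals of 5198 to 5277 after PBS and 5544 to 6672 after LPS. Without Dcn the sums overlapped, at 3768 to 3871 and 3500 to 4214. Before adjustment, 1 fibroblast gene was higher and 2 were lower at p under 0.05, Slc22a6 and Pdgfra (log2 fold changes -0.22 and -0.21, limma adjusted p = 0.332 and 0.340). The gene that passed was Dcn, which encodes the matrix proteoglycan decorin (log2 fold change 0.64, limma adjusted p = 0.0466), and it passed only without LPS replicate 3 when arrays were left out in turn (adjusted p up to 0.230), and its call ended after median centring (adjusted p = 0.155). Of 12 genes of pericytes and smooth muscle 0 passed limma, with summed signals of 3600 to 3862 after PBS and 4501 to 5115 after LPS and 5 higher at an unadjusted p under 0.05.

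Lef1 had log2 expression values of 7.43, 7.33 and 7.37 after PBS and 7.50, 7.77 and 7.72 after LPS. LPS replicate 1 lay close above the PBS mice and the other 2 lay well apart. The log2 fold change was 0.29 (95% confidence interval 0.059 to 0.51, limma adjusted p = 0.277), or 1.22-fold. Cells other than endothelium that use Lef1 were checked by their markers. Of 11 lymphocyte genes 0 passed limma, with 2 higher at an unadjusted p under 0.05, and 6 of them, among these Cd3d, Cd2, Cd79a and Ms4a1, lay below the receptor median in the PBS mice. Their summed signal was 563 to 604 after PBS and 589 to 620 after LPS. Of 8 genes of thalamic neurons 0 passed, with 0 at an unadjusted p under 0.05 and summed signals of 9010 to 9681 and 8970 to 9600. The related factors Tcf7l1 and Tcf7l2 had log2 fold changes of 0.05 and 0.04 (limma adjusted p = 0.854 and 0.849).

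Of 26 genes of the Wnt pathway that builds and keeps the blood-brain barrier, 1 rose, 0 fell and 25 did not pass, with a median log2 fold change of 0.07. This was Cldn5, which encodes the tight junction protein claudin 5 (log2 fold change 0.98, limma adjusted p = 0.00456). Mfsd2a, a lipid transporter of the barrier, had a negative difference that did not pass, with 10.69 ± 0.20 (SD, n = 3) after PBS and 9.98 ± 0.13 (SD, n = 3) after LPS (log2 fold change -0.71, limma adjusted p = 0.0784). Adgra2, the co-receptor of Wnt7a and Wnt7b, had a log2 fold change of 0.41 (limma adjusted p = 0.101), and Apcdd1, a Wnt inhibitor of brain vessels, of 0.82 (limma adjusted p = 0.114). Axin2, a widely used readout of beta-catenin that was named after its value was seen, had a log2 fold change of 0.08 (limma adjusted p = 0.793). Without LPS replicate 3 the higher genes numbered 3 and 1 was lower.

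Several genes that SOXF and ERG factors are known to act on passed the test, and whether they differed from the factors was not tested. Of 20 such targets 8 rose, 0 fell and 12 did not pass by limma. Their median log2 fold change was 0.59, against -0.02 over all named genes. Vwf, which encodes von Willebrand factor, was at 7.15 ± 0.08 after PBS and rose to 8.32 ± 0.06 after LPS (SD, n = 3 each), a log2 fold change of 1.17 (limma adjusted p = 0.00243). The angiopoietin receptor gene Tek rose by 1.04, the adhesion receptor gene Pecam1 by 1.04 and the VEGF receptor gene Kdr by 0.94 on the log2 scale (limma adjusted p = 0.00465, 0.0207 and 0.00922). Cldn5, Tie1, Cdh5, which encodes VE-cadherin, and Esam had log2 fold changes of 0.98, 0.92, 0.85 and 0.66. The study had already listed Vwf, Tek, Cldn5 and Cdh5 as differentially expressed in these brains. Genes of arterial identity in the list did not pass, with log2 fold changes of 0.16 for Notch1, 0.11 for Notch4, -0.10 for their ligand gene Dll4 and -0.06 for Efnb2, which encodes ephrin-B2. The number of targets called was 4, 4 and 5 without PBS replicates 1, 2 and 3 in turn, 5 and 6 without LPS replicates 1 and 2, and 10 without LPS replicate 3. Vwf, Tek, Cldn5 and Cdh5 passed without any 1 array (adjusted p up to 0.0480 from limma).

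**Figure D2:**
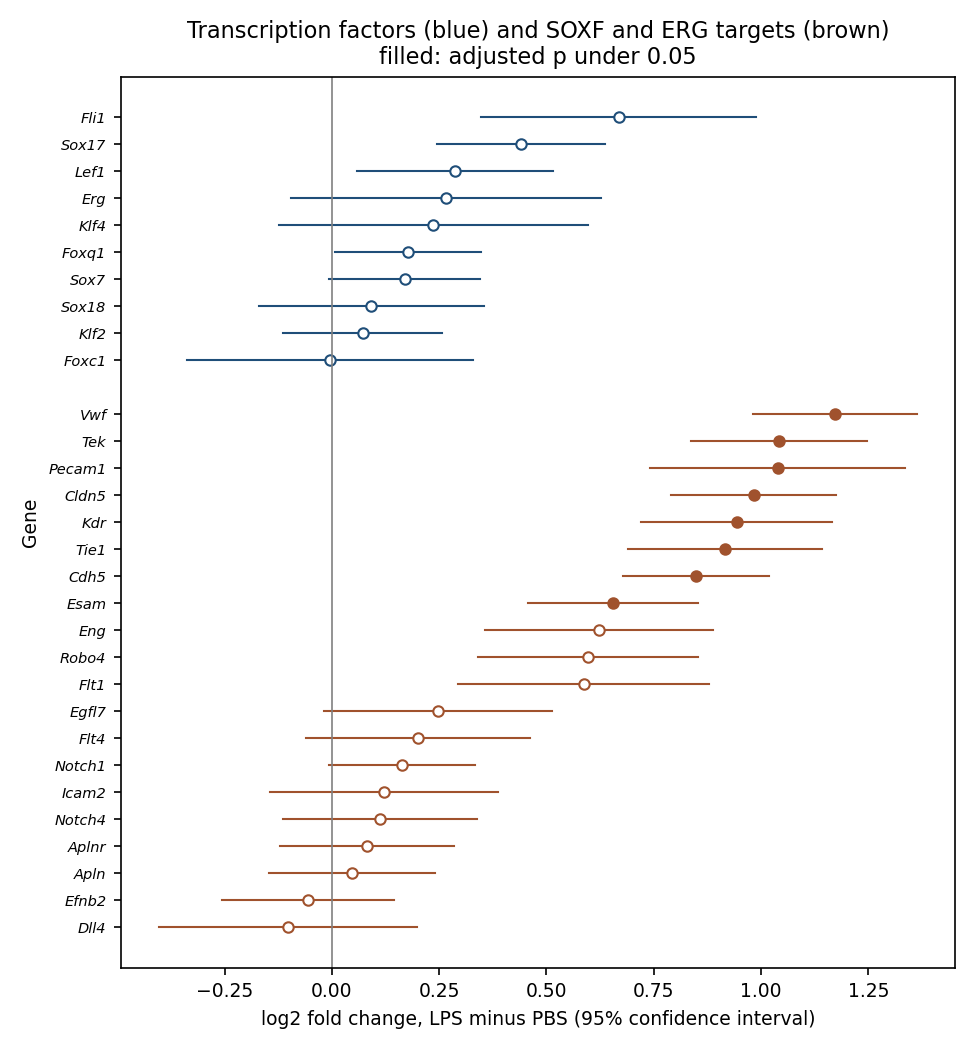
Log2 fold change of LPS over PBS with its 95% confidence interval from limma for the 10 transcription factors (blue) and for 20 genes known as targets of SOXF factors and ERG (brown), ordered by size within each group, with filled circles where the adjusted p was under 0.05. None of the blue circles is filled, and 8 brown ones are, from 0.66 for Esam to 1.17 for Vwf.

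Genes that Klf2 and Klf4 are known to raise and genes that they are known to restrain were both found among those called higher. Of 12 genes listed as raised by them, 5 were higher, 0 were lower and 7 did not pass, with a median log2 fold change of 0.45. The 5 were Tek, Cdh5, Kdr and Tie1, which are also in the SOXF and ERG list, and Cav1, which encodes caveolin 1 (log2 fold change 1.33, limma adjusted p = 0.0140). Klf2 is also known to repress Kdr, so that the place of Kdr in this list is not settled, and the counts include it. At an unadjusted p under 0.05, 7 of the 12 were higher and 1 was lower. The lower gene was Plat, the tissue plasminogen activator gene (log2 fold change -0.28, limma adjusted p = 0.301). The most familiar targets of Klf2 are Nos3, the endothelial nitric oxide synthase, and Thbd, the anticoagulant receptor thrombomodulin, both named after their values were seen. Nos3 had 6.58, 6.54 and 6.72 after PBS and 7.13, 7.24 and 7.43 after LPS, with all LPS mice above (log2 fold change 0.66, limma adjusted p = 0.0585), while Thbd overlapped between the groups (0.11, limma adjusted p = 0.800). Of 9 genes that Klf2 and Klf4 are known to restrain, 3 were higher, 0 were lower and 6 did not pass. The higher genes encode the leucocyte adhesion molecules Vcam1 and Icam1 and the vasoconstrictor precursor Edn1, with log2 fold changes of 1.42, 0.84 and 0.80 (limma adjusted p = 0.00243, 0.00809 and 0.00934). Of the 6 that did not pass, 3 lay below the receptor median in the PBS mice. Genes called in the first list numbered 2 without each PBS replicate in turn and 0 by the methods' t-test. In the second list they numbered 1 without PBS replicate 1 or 2 or LPS replicate 1, 5 without LPS replicate 3, and 0 by the methods' t-test.

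Part of the endothelial markers rose in the same arrays. Of 19 measured markers, which share 11 measured genes with the SOXF and ERG target list, 10 were higher, 0 were lower and 9 did not pass, with a median log2 fold change of 0.85. Their mean log2 value was 8.08, 7.99 and 8.13 in the PBS mice and 8.69, 8.70 and 8.76 in the LPS mice, and their summed linear signal was 8470 to 9514 after PBS and 11475 to 11598 after LPS. The higher markers numbered 5 without PBS replicate 1 or 2, 2 without both LPS replicates 1 and 2, and 0 by the methods' t-test. Among the 9 that did not pass, Slc2a1, Ocln, Abcg2 and Egfl7 had log2 fold changes of -0.07, 0.19, 0.24 and 0.25 (limma adjusted p = 0.784, 0.386, 0.432 and 0.377). Those of Flt1, Eng, Abcb1a and Slco1a4 were 0.59, 0.62, 0.65 and 0.97. Mfsd2a, which is in this list too, had the negative difference given above (-0.71), and it was called lower when clusters that name 1 gene or the means of a gene's clusters were tested. Without LPS replicate 3, 1 marker was called lower. Of the 19 markers, 10 had a larger log2 fold change than Fli1 and 14 a larger one than Sox17. The factors had PBS signals of 6.09 to 7.38, and 5 markers lay within that range, Pecam1, Tie1, Esam, Slc38a5 and Vwf. All 5 were higher, with log2 fold changes of 0.66 to 1.17, while the 10 factors ranged from -0.0044 to 0.67. Array signals do not compare the abundance of different genes, and the range is given only to set genes of like signal side by side. Of the SOXF and ERG targets, 8 lay in the same range and 4 of them were higher, with log2 fold changes of -0.10 to 1.17. The 4 that did not pass were Robo4, Notch4, Aplnr and Dll4. After the mean of the markers was subtracted on each array, 9 of the 10 factors were lower in all LPS mice than in all PBS mice, with differences from -0.21 for Sox17 to -0.65 for Foxc1 on the log2 scale. The same order held in 85.6% of all clusters, a share near that of the factors. Fli1 was the exception, with groups that overlapped and a difference of 0.02. The part of endothelial cell number in these values was not tested. The 1 higher gene of neutrophils and blood monocytes counted above was Csf3r, which encodes a colony-stimulating factor receptor. It passed only without LPS replicate 3 when arrays were left out in turn. Of the cell types not yet named, 0 of 8 choroid plexus genes, 7 oligodendrocyte genes, 8 astrocyte genes and 8 neuronal genes passed limma. Among these and the 7 platelet and erythrocyte genes counted above, 2 were higher and 3 lower at an unadjusted p under 0.05.

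**Figure D3:**
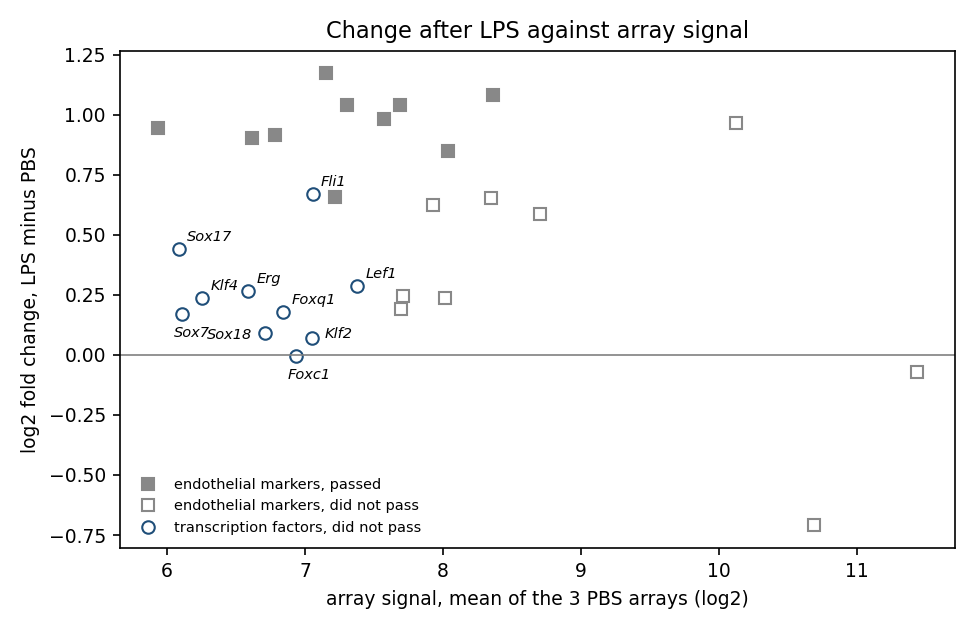
Log2 fold change of LPS over PBS against the mean array signal of the 3 PBS mice for the 10 transcription factors (blue circles, named) and 19 endothelial markers (grey squares, filled where the adjusted p was under 0.05). Within the range of signals of the factors, from 6.09 to 7.38, the 5 markers were all called and lay at 0.66 to 1.17, with Fli1 at 0.67 the highest of the factors. Over all signals 10 of the 19 markers were called higher and 9 did not pass.

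Since none of the factors passed, similar genes were sought for Sox17, which had the smallest p. Of all genes named alone, Pycard, Olfml3 and Npl had the highest Pearson correlation with Sox17 over the 6 arrays, with r of 0.997, 0.995 and 0.995. Pycard encodes the inflammasome adaptor ASC and Olfml3 a secreted protein of microglia, and they had log2 fold changes of 1.28 and 0.89 (limma adjusted p = 0.0394 and 0.0263). Npl, the gene of a sialic acid lyase, had a log2 fold change of 0.43 that did not pass (limma adjusted p = 0.127). The 6 points share the 2 groups and their arrays, so that r is given as a description.

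**Figure D4:**
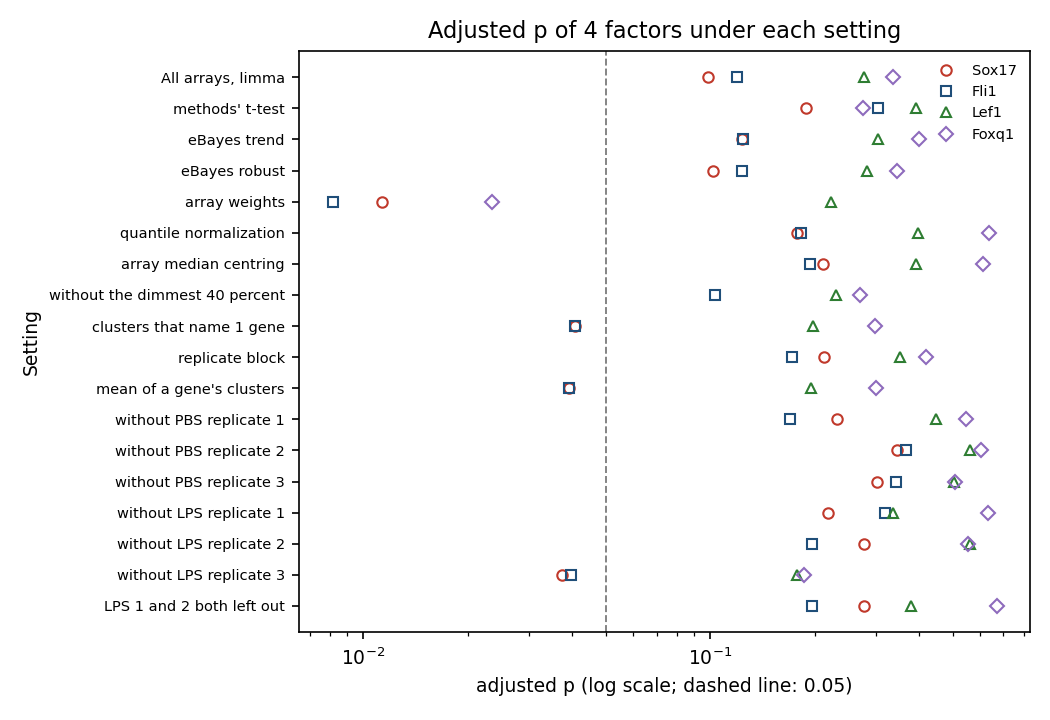
Adjusted p on a log axis for Sox17, Fli1, Lef1 and Foxq1 under limma on all arrays and under each alternative, with a dashed line at 0.05. Sox17 and Fli1 cross the line with array weights, when clusters that name 1 gene or gene means are tested and without LPS replicate 3, Foxq1 crosses it with array weights, and Lef1 stays to the right of it throughout.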

How the data were processed

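RNA from the whole brains of 6 mice, 3 given LPS and 3 given PBS, was measured on Mouse Gene 1.0 ST arrays. The log2 values are those deposited by the authors after RMA. The paper used Partek (adjusted for GC content) and GeneSpring (RMA 16), and which of these gave the deposited values is not stated. Fold changes from the values used here, 1.976 for Cldn5 and 1.716 for Foxf2, equal those of its Partek list at these digits. Its GeneSpring list gives another value for Cldn5, so the values match those of Partek. The paper ran the unpaired t test on its GeneSpring values, so the methods' t-test here does not repeat the test of its Partek list. No further normalization or filter was applied. The platform annotation named the clusters, 21789 with 1 gene, 1621 with several and 12146 with none, and the brightest cluster that names a gene alone stood for it. The LPS and PBS arrays were compared in R 4.3.3 by the moderated test of limma 3.58.1 (lmFit, eBayes). It was two-sided, p-values were adjusted by Benjamini-Hochberg across all 35556 clusters, and the threshold was 0.05. Replicates are separate mice.

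The 10 members, 10 gene lists and 12 lists of cell type markers were chosen from general knowledge with earlier results of these data known. The Partek list of the paper already held Vwf, Tek, Cldn5, Cdh5, Slc38a5, Itgam, Vcam1, Icam1, Edn1 and Foxf2. The calls of these genes here are not independent of that list. Named genes are the members, up to 4 other genes of a list with the smallest p, Cldn5, Cdh5 and Pecam1, and the 3 genes most correlated with the member of smallest p. Beyond this rule, the remaining genes of a list that passed were named after their values were seen. So were Nos3, Thbd, Axin2, Notch1, Notch4, Dll4, Efnb2, Cd3d, Cd2, Ms4a1, Plat, Robo4, Aplnr, Flt4 and Icam2. The same holds for Slc2a1, Ocln, Abcg2, Egfl7, Flt1, Eng, Abcb1a and Slco1a4. List members were counted, and no list was tested as a set. On simulated data for 35556 clusters, limma recovered 32.8%, 68.7% and 92.4% of clusters changed 1.5-fold, 2-fold and 4-fold, with 3 false calls. The simulated noise was drawn independently for each cluster and array. Differences shared across clusters, as on the first principal component of these arrays, are therefore not covered by these rates. Alternatives were the methods' t-test, array weights, eBayes as robust or with a trend, centring on the array median, quantile normalization, a filter on the dimmest 40% of clusters, other sets of clusters, the replicate number as a block, an adjusted threshold of 0.1 and each array left out in turn. Leaving out LPS replicates 1 and 2 together was chosen after seeing the data, and the lone LPS array is then assumed to vary like the PBS arrays.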

Additional observations from a re-analysis of the deposited data

How the results depend on the processing

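The count of 0 factors called higher became 3 with array weights (Sox17, Fli1 and Foxq1), a setting under which 8323 clusters passed in all, 2 when clusters that name 1 gene were tested, 2 with the mean of a gene's clusters, 1 at an adjusted p under 0.1, and 0 to 2 with single arrays left out. It stayed at 0 under the other alternatives run, and 0 factors were called lower under all of them. The filter on the dimmest 40% of clusters removed 3 factors from the test and called 0 of the others. The replicate numbers did not pair the mice (correlations of deviations of 0.09, -0.05 and 0.10). With the replicate block 0 factors and 3 of the SOXF and ERG targets passed, against 8 of these targets without it. So did 1 of the genes listed as raised by Klf2 and Klf4, 1 of those they restrain and 4 endothelial markers, against 5, 3 and 10. The 1 gene of the raised list was Kdr (limma adjusted p = 0.0479). The SOXF and ERG targets numbered 0 by the methods' t-test, 4 to 10 with single arrays left out and 2 without both LPS replicates 1 and 2. Signs turned for Klf2 after quantile normalization (-0.021) and median centring (-0.019), for Foxc1 with array weights (0.15) and single arrays left out (-0.085 to 0.12), and for Sox18 with single arrays left out (-0.0020 to 0.14), and the cause was not tested. Klf4, Sox7 and Sox17 lay nearest to background. Among genes with lower signals after PBS, Kdr and Hhex passed and Flt4 and Icam2 did not. The part of low signal in the missing calls was not tested. The number of arrays limits the precision.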

Other observations

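Other endothelial transcription factors were measured on the same arrays. Of 28 measured members of this list 2 rose, 0 fell and 26 did not pass by limma. At an unadjusted p under 0.05, 9 of them were higher and 1 was lower. Foxf2, a forkhead factor of brain pericytes and endothelium that shares its DNA-binding domain type with Foxc1 and Foxq1, had log2 expression values of 6.49, 6.39 and 6.38 after PBS and 7.14, 7.25 and 7.21 after LPS. The groups lay well apart, with a log2 fold change of 0.78 (limma adjusted p = 0.00867), a call that ended on leaving out any single PBS replicate (adjusted p up to 0.0678). Hhex, a homeobox factor of blood and endothelial progenitors, was at 5.91 ± 0.04 after PBS and rose to 6.38 ± 0.02 after LPS (SD, n = 3 each), a log2 fold change of 0.48 (limma adjusted p = 0.0417) that passed only without LPS replicate 3 when arrays were left out in turn (adjusted p up to 0.220). The call of Hhex also ended after quantile normalization (limma adjusted p = 0.0944), median centring (limma adjusted p = 0.154) and eBayes with a trend (limma adjusted p = 0.0659). Prox1, which drives lymphatic fate and is also a factor of hippocampal neurons, had a log2 fold change of 0.39 (limma adjusted p = 0.110). Without LPS replicate 3, 5 of this list were higher, and on leaving out any single PBS replicate 0 were.

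The wider families to which the 10 factors belong held few calls. Of 17 KLF genes 0 passed limma, with 1 higher at an unadjusted p under 0.05, and of 19 SOX genes 0 passed, with 2 higher and 3 lower at that level. Sox3 and Sox4, factors of neural progenitors, had log2 fold changes of -0.31 and -0.27 (limma adjusted p = 0.192 and 0.226), the opposite sign to that of Sox17. Of 25 ETS genes 1, Spi1, was higher, and of 43 forkhead genes 1, Foxf2, was higher, with 0 lower in either family. The median log2 fold changes of the ETS and forkhead families were 0.10 and -0.06.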
